A study of Mus musculus with 16 samples.

Results

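Cytosolic ribosomal protein genes were described in cultured mouse macrophages with and without Smad7. The family was taken by name from the deposited count table: protein-coding rows whose symbol starts with Rpl or Rps followed by a digit, together with Rpsa, Rplp0, Rplp1 and Rplp2, and without the Rps6k kinases and Rps19bp1. The rule found 105 genes among 35275 rows, and 86 of them passed the filter on low counts that kept 13080 genes for testing. The 16 libraries, 4 in each of 4 groups, were made from polyadenylated RNA of C57BL/6 tibial marrow macrophages that had been cultured with CSF-1 and then deprived of serum. The groups were KO cells with TGF-β1 (10 ng/ml, 4 hours), fl/fl cells with the same TGF-β1, untreated KO cells and untreated fl/fl cells. KO cells came from mice that carried floxed Smad7 alleles and CAGGCre-ER, a tamoxifen-inducible Cre under the ubiquitous CAGG promoter, and fl/fl cells came from Smad7 fl/fl littermates. Mice of both genotypes received tamoxifen at 20 mg/kg for 5 days from the age of 1 month and were killed 2 weeks later, so all 4 groups share the floxed alleles and the tamoxifen, and only KO mice carried the Cre. The deletion was global and not limited to myeloid cells. Nothing in the sources used here says whether the libraries of a group came from separate mice, so the p-values measure the spread between these libraries, which may be technical.

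Ribosomal proteins line the small and the large subunit of the cytosolic ribosome around the ribosomal RNA, and most are needed in equal numbers in every ribosome. Their mRNAs are short and among the most abundant of a cell, and many begin with a run of pyrimidines at the cap (the TOP motif) that puts their translation under the control of mTORC1. Growing macrophages stimulated through the CSF-1 receptor raise ribosome production, while TGF-β restrains growth in many cell types. Smad7 is induced by TGF-β and inhibits the TGF-β receptor.

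The 105 genes comprised 77 genes of the standard ribosomal proteins, 9 paralogs and 19 genes named as pseudogenes (-ps) that the deposited table nevertheless lists as protein coding. Among the standard genes 76 were tested, 42 of the large subunit, 31 of the small subunit and 3 of the stalk, and the remaining one, Rpl24, was listed with 0 to 9 counts per library. Of the paralogs, Rpl22l1, Rps27l, Rpl36al, Rpl7l1, Rps4l and Rps27rt were tested, and Rpl3l, Rpl10l and Rpl39l had at most 6 counts in any library. Of the -ps genes, Rps26-ps1, Rpl23a-ps3, Rpl9-ps6 and Rps12-ps3 were tested. The other 15 (Rpl10-ps3, Rpl13-ps3, Rpl13a-ps1, Rpl21-ps4, Rpl27-ps3, Rpl28-ps4, Rpl36-ps3, Rpl36-ps4, Rpl7a-ps3, Rpl7a-ps5, Rpl7a-ps8, Rpl9-ps1, Rps10-ps1, Rps18-ps3 and Rps2-ps6) had between 0 and 51 counts in every library. In the GENCODE M21 annotation, 47.0% of the exon bases of Rpl24, 66.2% of those of Rpl35 and 62.3% of those of Rpl23a lie in exons of another gene. The counting rule for such bases and for reads that match near-identical copies is not stated, so the levels of these genes and of the -ps genes are uncertain.

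The start sites of 7 members are shown because the pyrimidine run of the family lies there and because these genes recur in the results. Each line gives 40 bases before the annotated start and 15 from it, from RefSeq on GRCm38.p6, in the direction of transcription, with the longest run of C and T that reached into the 15 bases on either side of the start in capitals (of 2 equally long runs, the one nearer the start). The windows lie at chr9:64173347-64173401 (Rpl4, plus strand), chr11:114668540-114668594 (Rpl38, plus), chr3:86142654-86142708 (Rps3a1, minus), chr17:33824548-33824602 (Rps28, minus), chr3:90213634-90213688 (Rps27, minus), chr9:66946046-66946100 (Rps27l, plus) and chr3:28805468-28805522 (Rpl22l1, plus).
Rpl4: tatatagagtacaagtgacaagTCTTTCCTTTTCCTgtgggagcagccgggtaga
Rpl38: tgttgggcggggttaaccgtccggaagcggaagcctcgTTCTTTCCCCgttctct
Rps3a1: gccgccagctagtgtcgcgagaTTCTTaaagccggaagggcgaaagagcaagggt
Rps28: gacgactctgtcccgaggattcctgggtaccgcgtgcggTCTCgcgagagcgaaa
Rps27: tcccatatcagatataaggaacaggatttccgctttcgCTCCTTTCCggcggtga
Rps27l: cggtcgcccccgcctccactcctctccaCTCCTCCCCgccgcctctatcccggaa
Rpl22l1: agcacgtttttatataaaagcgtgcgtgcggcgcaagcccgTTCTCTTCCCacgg
The run measured 14 bases at Rpl4, 10 at Rpl38, 5 at Rps3a1, 4 at Rps28, 9 at Rps27, 9 at Rps27l and 10 at Rpl22l1, read in the direction of transcription. The runs of Rpl4, Rps3a1 and Rps27l ended before the annotated start. Another window of Rps27l, not shown, had a run of 4. Of the 86 members without -ps in their name, 65 had a window in the RefSeq table, with 77 windows in all. A run of 8 or more C or T reached within 15 bases of the start in 41.6% of those windows, against 17.6% of the 32851 windows of all genes. Other motifs were searched over the whole 300-base window on both strands. The core of ETS-family sites, CCGGAAG, was present in 35.1% of the family's windows and 8.90% of all windows. A YY1-type site, AAGATGGC, was present in 10.4% of the family's windows and 2.70% of all windows. The GC box GGGCGG was present in 59.7% of the family's windows and 35.7% of all windows. The TATA box TATAAA was present in 9.10% of the family's windows and 13.6% of all windows. These matches describe the windows and are not evidence of binding.

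The shortest product of the family, Rpl41, has a coding sequence of 75 bases without the stop codon, or 25 codons, which is shown because the length of the coding sequence recurs below. It spans chr10:128548390-128548960 on the minus strand of GRCm38 in GENCODE M21.
Rpl41: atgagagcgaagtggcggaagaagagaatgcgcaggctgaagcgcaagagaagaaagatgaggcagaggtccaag

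Rplp1 and Rplp0 of the stalk, which recruits elongation factors, and Rps2, Rps12 and Rpl32 were the most abundant members per length. FPKM, a level per kilobase of gene scaled to the counted fragments of the library, averaged 1044 for Rplp1, 1042 for Rps2, 1009 for Rplp0, 950.3 for Rps12 and 818 for Rpl32 over the 16 libraries. Rplp1 ran from 651 to 2317 FPKM, whereas Rplp0 ran from 867 to 1318 FPKM, so these 2 stalk genes differed in how much they varied between libraries. The tested standard genes had a median of 346 FPKM. The lowest of them were Rpl30 at 17.7 FPKM, Rpl23a at 19.3 FPKM, Rpl35 at 24.5 FPKM and Rps15a at 44.9 FPKM. Exon overlap with other genes, given above for Rpl35 and Rpl23a, also touches Rpl30 (24.8% of exon bases). It is not limited to low members: Rpl13a shared 35.4% at 351 FPKM and Rps10 28.7% at 349 FPKM, while Rps15a shared 0%. The part of overlap in these levels was not tested.

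The family took up between 2.105% and 4.71% of all counts of a library. The share was 3.69%, 2.91%, 2.89% and 2.57% in KO TGF-β1 replicates 1 to 4 (mean 3.02% ± 0.475 SD, n = 4). It was 2.45%, 2.105%, 2.55% and 3.12% in fl/fl TGF-β1 replicates 1 to 4 (2.56% ± 0.419 SD, n = 4). In KO untreated replicates 1 to 4 it was 2.91%, 4.71%, 2.86% and 2.65% (3.28% ± 0.961 SD, n = 4), and 3.41% ± 1.14 (SD, n = 3) without replicate 1. In fl/fl untreated replicates 1 to 4 it was 2.27%, 2.34%, 2.60% and 2.80% (2.50% ± 0.245 SD, n = 4). KO untreated replicate 2 stood apart from its group, and the ranges of the groups overlapped in both treatment comparisons and in KO TGF-β1 against fl/fl TGF-β1 and in KO untreated against fl/fl untreated. A share of bulk RNA cannot tell fewer cells of a type from less RNA per cell.

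**Figure D1:**
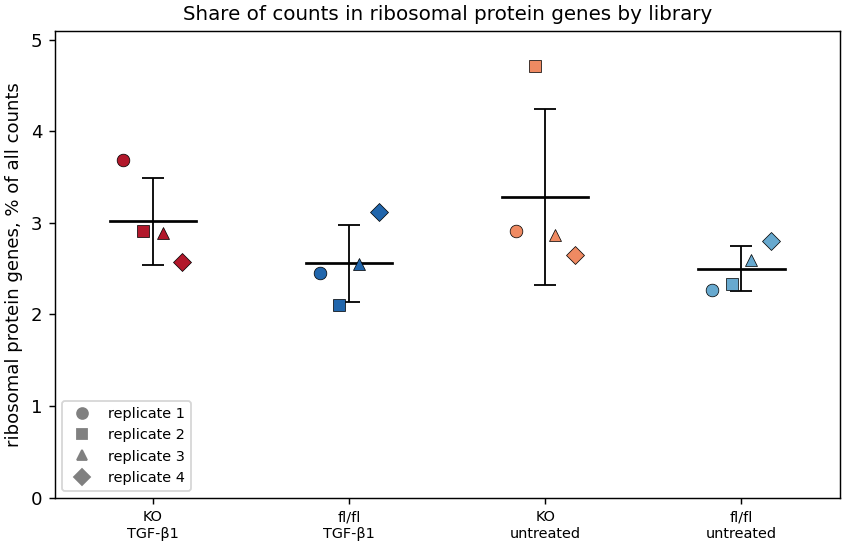
Percent of all counts of a library that fell on the 105 ribosomal protein genes, by group. Points are libraries, with a shape for each replicate number, and black lines give the mean and SD of 4 libraries. KO untreated replicate 2, at 4.71%, lies above the other 3 libraries of its group, which lie between 2.65% and 2.91%.

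The libraries that touch these results are as follows. Total counts per library ran from 16865591 to 23741079. All 12 listed macrophage markers found in the table exceeded 1 CPM (counts scaled to the normalised library size) in every group, while the summed neutrophil markers stayed at or below 15.96 CPM and Ly6g and Retnlg, which define neutrophils, were at 0 in every library. The 6 listed B-cell markers in the table summed to 73.1 to 110.4 CPM in KO TGF-β1, 90.3 to 118 CPM in fl/fl TGF-β1, 115 to 193 CPM in KO untreated and 163 to 215 CPM in fl/fl untreated libraries, with Pax5 at 0 throughout. The 6 listed endothelial markers summed to 85.1 to 131 CPM in KO TGF-β1, 106 to 150.4 CPM in fl/fl TGF-β1, 36.4 to 83.7 CPM in KO untreated and 73.2 to 86.4 CPM in fl/fl untreated libraries. The part of either marker set in the results was not tested. Smad7 was at 10.3 to 19.7 CPM in KO TGF-β1 and 37.3 to 58.3 CPM in fl/fl TGF-β1 libraries. It was at 1.28 to 2.00 CPM in KO untreated replicates 2 to 4 and 3.89 to 6.03 CPM in fl/fl untreated libraries, but at 5.87 CPM in the library labelled KO untreated replicate 1, which goes against its label. The main results are therefore also given without that library. Mitochondrially encoded genes took 2.71% of counts in KO untreated replicate 2, the highest share, and 0.575% in fl/fl TGF-β1 replicate 4, the lowest, with 14915 genes detected there and 15834 to 17195 in the others.

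The members varied together from library to library. The SD of log2 CPM over the 16 libraries had a median of 0.314 over the 86 tested members, against 0.304 over all tested genes. After the median member of each library was subtracted, the median SD of the members was 0.152, and 76 of the 86 had a smaller SD than before. KO untreated replicate 2 held the highest level of the 16 libraries for 68 of the 86 members (79.1%), where 19.3% of all tested genes had their highest level. The lowest level was in fl/fl untreated replicate 1 for 41 members (47.7%), where 10.6% of all tested genes had their lowest level. It was in fl/fl TGF-β1 replicate 2 for 28 members (32.6%), where 5.35% of all tested genes had theirs. Rpl4, which lines part of the exit tunnel, Rplp0 and Rpl7 were the steadiest members, with SDs of 0.11, 0.13 and 0.14. Rpl4 was at 857, 918, 912 and 853 CPM in KO TGF-β1, 853, 762, 805 and 968 CPM in fl/fl TGF-β1, 881, 972, 827 and 797 CPM in KO untreated and 799.6, 784, 809.6 and 864 CPM in fl/fl untreated libraries. The highest SDs belonged to the 3 scarce genes Rpl9-ps6 (1.11), Rps27rt (0.99) and Rps12-ps3 (0.68), with 21.7 to 26.5 counts per library on average.

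TGF-β1 changed no ribosomal protein gene in fl/fl macrophages by edgeR's quasi-likelihood test at an adjusted p of 0.05, while 15.5% of all tested genes passed it. DESeq2 and limma on log2(FPKM + 1) also called none. At an unadjusted p of 0.05 edgeR took 1 member as higher and none as lower, where 13.3% of all tested genes were higher and 14.1% lower. DESeq2 took 1 member as higher, where it took 13.8% of all tested genes, and limma 0, where it took 10.7%. The log2 fold changes of the members had a median of 0.09 and quartiles of 0.01 and 0.18, against a median of -0.01 over all tested genes, and 66 of 86 were positive. The member with the lowest p was Rpl23a, where nascent chains meet the signal recognition particle, at 10.4, 10.8, 13.4 and 20.2 CPM in fl/fl TGF-β1 libraries, against 7.24, 9.49, 11.1 and 9.59 CPM in fl/fl untreated libraries. The groups overlapped, and the log2 fold change was 0.55 ± 0.22 (SE) with an adjusted p of 0.111 by edgeR. Rpl7l1 and Rps28 followed, with log2 fold changes of 0.19 ± 0.11 and 0.45 ± 0.26. Rpl23a and Rps28 were higher with TGF-β1 in each of the 4 same-numbered pairs of fl/fl libraries. The labels do not state this pairing, and the correlations between libraries do not establish it. Both genes were named for their low p, and the share of all tested genes higher in all 4 pairs is not given. The blocked values below carry the same limit. With those pairs as a block no member passed either, where 16.8% of all tested genes did. Rpl23a then had a log2 fold change of 0.52 ± 0.17 with an adjusted p of 0.0536 by edgeR. For Rpl7, of the large subunit, all 4 fl/fl TGF-β1 libraries (459 to 498 CPM) lay below the 4 fl/fl untreated libraries (499 to 532 CPM). Its log2 fold change was -0.09 ± 0.10 with an adjusted p of 0.63 by edgeR, and it was the only member without overlap in this comparison, where 12.5% of all tested genes were lower without overlap. Its nearest libraries were at 498 and 499 CPM, and its groups overlapped once the library labelled KO untreated replicate 1 was left out of the scaling. Without fl/fl TGF-β1 replicate 4 the median of the members was 0.01 and without fl/fl TGF-β1 replicate 2 it was 0.21.

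In KO macrophages TGF-β1 changed no member either, while 5.17% of all tested genes passed the threshold, and DESeq2 and limma called none. No member reached an unadjusted p of 0.05 in any of the 3 tests, where edgeR took 8.25% of all tested genes as higher and 9.42% as lower. The median log2 fold change of the members was -0.10, against -0.03 over all tested genes, and 75 of 86 were negative. Rpl35, at the exit of the tunnel, had the lowest p, with 13.4, 27.3, 25.9 and 17.3 CPM in KO TGF-β1 libraries, against 22.1, 50.03, 24.8 and 21.96 CPM in KO untreated libraries. The groups overlapped, and the log2 fold change was -0.50 ± 0.25 with an adjusted p of 0.305 by edgeR. Rps27l and Rpl22 came next, with -0.33 ± 0.19 and -0.24 ± 0.14. The direction of the family in this comparison rested on a single library: without KO untreated replicate 2 the median was 0.14. Without KO TGF-β1 replicate 1 it was -0.20 and without the library labelled KO untreated replicate 1 it was -0.11. In that last fit edgeR called no member, where 14.9% of all tested genes passed, and 2 members (Rpl35 and Rps27l) were lower at an unadjusted p of 0.05, where 11.9% of all tested genes were.

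Ribosomal protein genes had higher fitted levels in untreated KO than in untreated fl/fl libraries for 85 of 86 members, but none passed the adjusted threshold by edgeR with all 16 libraries, where 0.0459% of all tested genes did. DESeq2 called 1 member, Rpl29, and limma none. The share of all tested genes that DESeq2 called at its adjusted threshold is not given here. At an unadjusted p of 0.05, 41 of 86 members were higher and none lower, where 6.37% of all tested genes were higher and 4.50% lower. DESeq2 took 43 members as higher at that level, where it took 6.36% of all tested genes, and limma 33, where it took 6.55%. The log2 fold changes had a median of 0.41, or 1.32-fold, with quartiles of 0.29 and 0.52, against 0.03 over all tested genes, and the scarce Rps4l, at -0.54 ± 0.37, was the exception in direction. This size depended on KO untreated replicate 2: without it the median was 0.16, and 2 members were higher and 1 lower at an unadjusted p of 0.05, where 4.29% of all tested genes were higher. Without KO untreated replicate 4 the number higher was 63, where 7.73% of all tested genes were. Without fl/fl untreated replicate 1 it was 13 (3.77% of all tested genes) and without fl/fl untreated replicate 2 it was 14 (3.41%). Without the library labelled KO untreated replicate 1 the median was 0.43 and 47 of 87 members were higher at that level, against 5.85% of all tested genes, and 1 member, Rpl29, passed the adjusted threshold, where 0.0975% of all tested genes did.

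**Figure D2:**
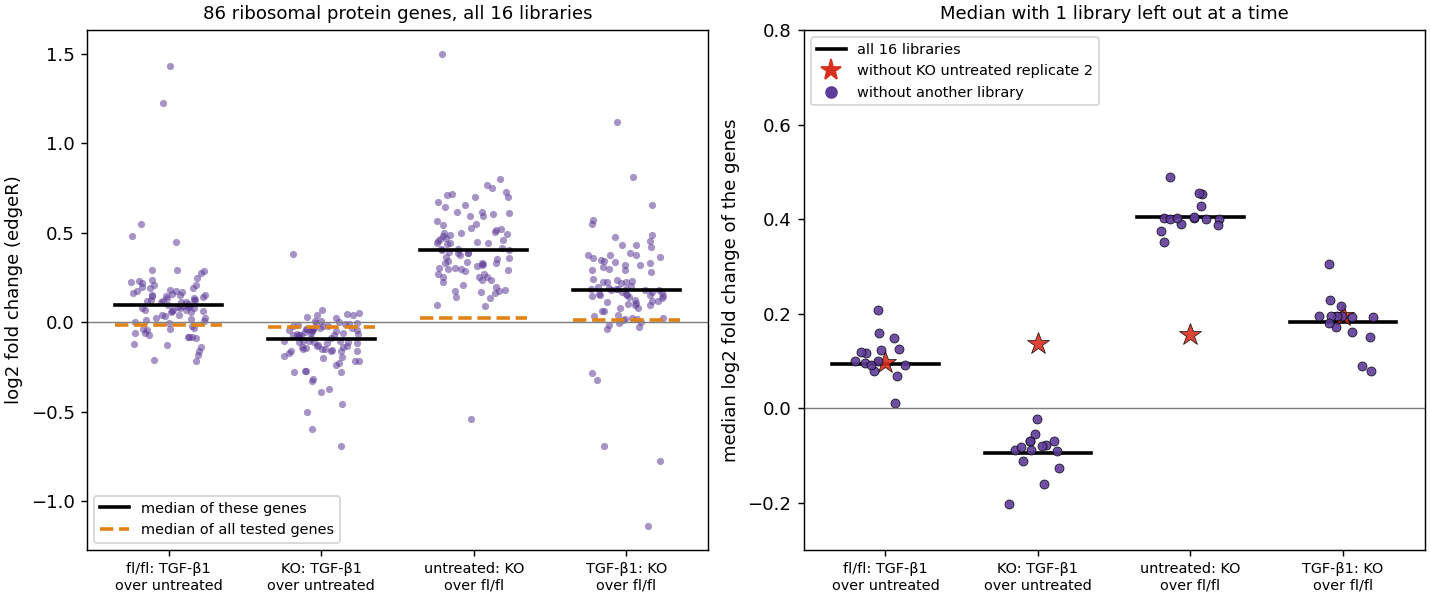
Left, edgeR log2 fold changes of the 86 tested ribosomal protein genes in 4 comparisons, with the first-named group of each label over the second; black bars are their median and dashed bars the median of all tested genes. Right, the same median with each of the 16 libraries left out in turn; the star marks the fit without KO untreated replicate 2, in which the median for untreated KO over fl/fl is 0.16 and that for TGF-β1 in KO cells is 0.14.

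In 7 members the 4 KO untreated libraries lay above all 4 fl/fl untreated libraries, where 3.94% of all tested genes did so. These were Rpl36a, Rpl36al, Rpl39, Rps21, Rps26, Rps27rt and Rps3a1, and without the library labelled KO untreated replicate 1 there were 10, where 6.33% of all tested genes did so. Rps3a1, a protein of the small subunit near the exit of the mRNA channel, was at 462, 728, 451 and 424 CPM in KO untreated libraries, against 356, 344, 360.0 and 402 CPM in fl/fl untreated libraries. The highest value was again that of KO untreated replicate 2. The log2 fold change was 0.50 ± 0.15, with an adjusted p of 0.387 by edgeR. Rpl11, which with Rpl5 and 5S ribosomal RNA binds Mdm2, was at 312, 471, 299 and 277 CPM in KO untreated libraries, against 189, 210.4, 261 and 287 CPM in fl/fl untreated libraries, and the groups overlapped (log2 fold change 0.52 ± 0.18, adjusted p of 0.414 by edgeR). Rpl38, known for its part in the translation of Hox mRNAs in mouse embryos, showed the weight of a single library. It was at 77.0, 253, 87.4 and 86.04 CPM in KO untreated libraries, against 52.5, 63.5, 84.8 and 87.4 CPM in fl/fl untreated libraries. Its log2 fold change of 0.80 ± 0.32 was the highest of the tested standard genes, with an adjusted p of 0.421 by edgeR.

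Under TGF-β1 the fitted levels were higher in KO than in fl/fl libraries for 77 of 86 members, and no member passed the adjusted threshold, where 0.0382% of all tested genes did. DESeq2 and limma called none. At an unadjusted p of 0.05 edgeR took 13 members as higher and none as lower, where 2.63% of all tested genes were higher and 2.98% lower. DESeq2 took 14 as higher and 1 as lower, where it took 3.00% of all tested genes as higher, and limma took 12 as higher, where it took 6.66%. The median log2 fold change was 0.18, or 1.14-fold, against 0.01 over all tested genes. The median was 0.09 without KO TGF-β1 replicate 1, 0.08 without fl/fl TGF-β1 replicate 2 and 0.30 without fl/fl TGF-β1 replicate 4. The number of members higher at an unadjusted p of 0.05 was 5 without KO TGF-β1 replicate 1 (1.66% of all tested genes in that fit), 5 without fl/fl TGF-β1 replicate 2 (2.59%) and 7 without fl/fl TGF-β1 replicate 1 (2.33%). It was 27 without KO untreated replicate 2 (3.67%), a library that enters this comparison through the shared scaling and spread. In 9 members the 4 KO TGF-β1 libraries lay above all 4 fl/fl TGF-β1 libraries, where 2.00% of all tested genes did so: Rpl22l1, Rpl30, Rpl39, Rpl5, Rpl7, Rps15a, Rps27a, Rps3a1 and Rps4x. In fl/fl TGF-β1 replicate 4 all 9 lay more than 0.2 below the other 3 libraries of that group when set against the family median (log2). The share of all tested genes that did so was not counted. Rpl39, a short protein at the exit tunnel, was at 163, 97.2, 97.9 and 90.5 CPM in KO TGF-β1 libraries, against 82.8, 63.9, 84.1 and 53.4 CPM in fl/fl TGF-β1 libraries. Its log2 fold change was 0.66 ± 0.21 with an adjusted p of 0.876 by edgeR. Rps3a1 was at 547, 439, 445 and 415 CPM in KO TGF-β1 libraries, against 331, 302, 367 and 327 CPM in fl/fl TGF-β1 libraries, with a log2 fold change of 0.48 ± 0.15 and an adjusted p of 0.875 by edgeR. Rpl39 and Rps3a1 thus showed no overlap between the genotypes in either condition. The 2 genotype comparisons share no library, but whether they share mice is not stated, so they cannot be read as independent. Members without overlap were named after their values were seen. The share of all tested genes without overlap in both comparisons was not counted.

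Rpl29, a peripheral protein of the large subunit, came nearest to a difference between the genotypes. Rpl29 (ENSMUSG00000048758, chr9:106429454-106431568, plus strand, mm10) was at 327, 258, 405 and 367 CPM in KO TGF-β1 libraries (339 ± 62.8 CPM, SD, n = 4), against 214, 185, 231 and 281 CPM in fl/fl TGF-β1 libraries (228 ± 40.4 CPM, SD, n = 4). It was at 247, 376, 401 and 373 CPM in KO untreated libraries (349 ± 69.5 CPM, SD, n = 4), against 186, 203, 212 and 252 CPM in fl/fl untreated libraries (213 ± 28.0 CPM, SD, n = 4). Both pairs of groups overlapped, through KO TGF-β1 replicate 2 and through the library labelled KO untreated replicate 1. The log2 fold change was 0.57 ± 0.17 under TGF-β1 (adjusted p of 0.852 by edgeR) and 0.71 ± 0.17 in untreated cells (adjusted p of 0.229 by edgeR). The comparison of untreated cells passed with DESeq2 (adjusted p of 0.0248), and by edgeR without the library labelled KO untreated replicate 1, where Rpl29 rose by a log2 fold change of 0.82 ± 0.15 with an adjusted p of 0.0465. Over all fits that left out a single library the log2 fold change of untreated KO over fl/fl cells ran from 0.62 to 0.82 and the adjusted p from 0.0465 to 0.587. Without KO untreated replicate 2, the library in which the family as a whole was high, it was 0.67. Relative to the median member of its library, Rpl29 did not follow the family. On the log2 scale it lay 0.31 and 0.37 above that median in KO TGF-β1 replicates 3 and 4, and 0.33 and 0.36 above it in KO untreated replicates 3 and 4. In the other 12 libraries it lay below it, by -0.29 and -0.28 in KO TGF-β1 replicates 1 and 2, -0.38 to -0.22 in fl/fl TGF-β1, -0.35 and -0.47 in KO untreated replicates 1 and 2 and -0.40 to -0.19 in fl/fl untreated libraries. KO libraries of both conditions thus held 2 levels of Rpl29 relative to the family, and each fl/fl library held the lower level. This pattern was noticed in these values, the libraries were not regrouped by it and it was not tested.

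**Figure D3:**
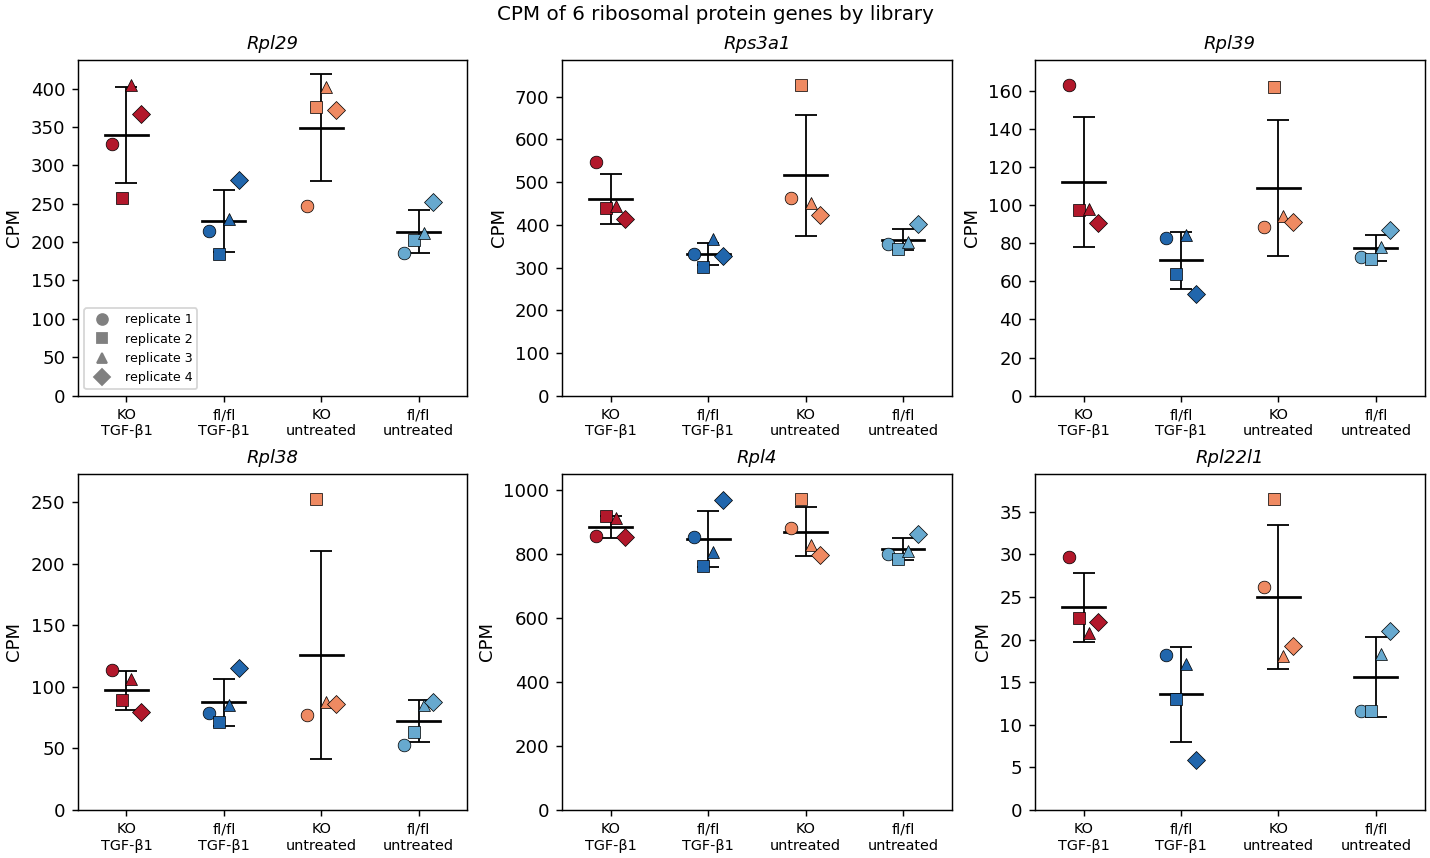
CPM of 6 ribosomal protein genes in each library, by group, with a shape for each replicate number and lines for the mean and SD of 4 libraries; each panel has its own axis, starting at 0. Rpl29 is at 405 and 367 CPM in KO TGF-β1 replicates 3 and 4 and at most 281 CPM in any fl/fl library, while Rpl38 is at 253 CPM in KO untreated replicate 2 and at most 115 CPM elsewhere.

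No member passed a test of the interaction, that is, of whether the response to TGF-β1 differed between KO and fl/fl cells, and no gene of the table did (0% of all tested genes). No member reached an unadjusted p of 0.05 by edgeR, DESeq2 or limma, where edgeR took 1.58% of all tested genes as lower and 0.520% as higher. The members' interaction terms on the log2 scale had a median of -0.19, against -0.01 over all tested genes. Without KO untreated replicate 2 that median was 0.04. The lowest p belonged to Rps27rt (-1.82 ± 1.02), Rpl23a (-0.54 ± 0.31) and Rps26-ps1 (-0.98 ± 0.59), each with an adjusted p of 0.993 by edgeR.

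With all 16 libraries, the size of the genotype difference in untreated cells went with the length of the coding sequence. Among the 76 tested standard genes, whose coding length ran from 75 to 1257 bases, the log2 fold change of KO over fl/fl untreated cells had a Pearson correlation of -0.67 (Spearman -0.65) with log2 coding length. The SD over the 16 libraries had a Pearson correlation of -0.76 (Spearman -0.73) with it. These are correlations across genes that share the same libraries, and genes are not independent replicates. Members with up to 300 coding bases (11 genes) had a median log2 fold change of 0.59, those with over 300 and up to 600 bases (49 genes) 0.45, those with over 600 and up to 1200 bases (21 genes) 0.25 and the 2 longest, Rpl3 and Rpl4, 0.14 and 0.09. The same order held outside the family: other nuclear protein-coding genes of those 4 classes (237, 1261, 3400 and 6782 genes) had medians of 0.32, 0.19, 0.07 and -0.03. In each class the members lay above the other genes. Without the library labelled KO untreated replicate 1 the medians of the members by class were 0.73, 0.48, 0.27 and 0.08. Values by class without KO untreated replicate 2 are not given here. In KO TGF-β1 over fl/fl TGF-β1 the correlation with coding length was -0.25 (Spearman -0.29), and the medians of the members by class were 0.18, 0.23, 0.12 and 0.04, against 0.18, 0.10, 0.04 and -0.03 for the other genes. Coding lengths were found for 83 of the 86 tested members and for 98.9% of the other tested nuclear protein-coding genes.

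**Figure D4:**
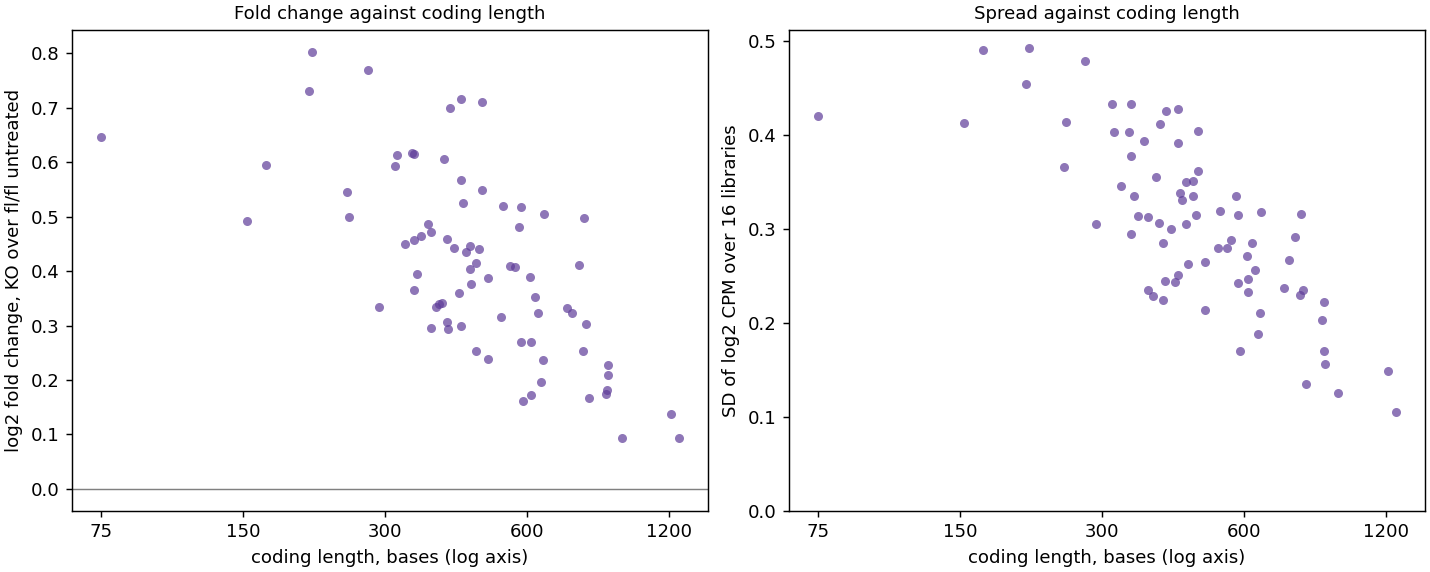
Each point is 1 of 76 standard ribosomal protein genes; the x axis is the length of the coding sequence in bases on a log axis. Left, the edgeR log2 fold change of KO over fl/fl untreated libraries (Pearson correlation -0.67 with log2 length); right, the SD of log2 CPM over the 16 libraries (-0.76).

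The length pattern differed between libraries. In KO untreated replicate 2 members with up to 300 coding bases lay 0.98 above their mean over the 16 libraries (median, log2 CPM), those of the next class 0.80 and those with over 600 and up to 1200 bases 0.51. Other genes of the same classes lay 0.60, 0.34 and 0.13 above theirs, and those over 1200 bases lay 0.07 below theirs. Members of those classes lay at -0.12, 0.03 and 0.08 in KO untreated replicate 1. They lay at 0.06, 0.04 and 0.01 in replicate 3 and at 0.02, -0.09 and -0.11 in replicate 4. In fl/fl untreated replicates 1 to 4 members of the shortest class lay at -0.42, -0.33, -0.16 and -0.11. Those with over 600 and up to 1200 bases lay at -0.28, -0.22, -0.07 and 0.03 there. In KO TGF-β1 replicate 1 the members of the shortest class lay 0.56 above their mean and the other genes of that class 0.40. In fl/fl TGF-β1 replicate 2 and fl/fl untreated replicate 2 the other genes of the shortest class lay at -0.26 and -0.27. The part of library composition in the genotype difference of the family was not tested. Without KO untreated replicate 2 the median of the members was 0.16, in a fit that kept fl/fl untreated replicate 2.

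**Figure D5:**
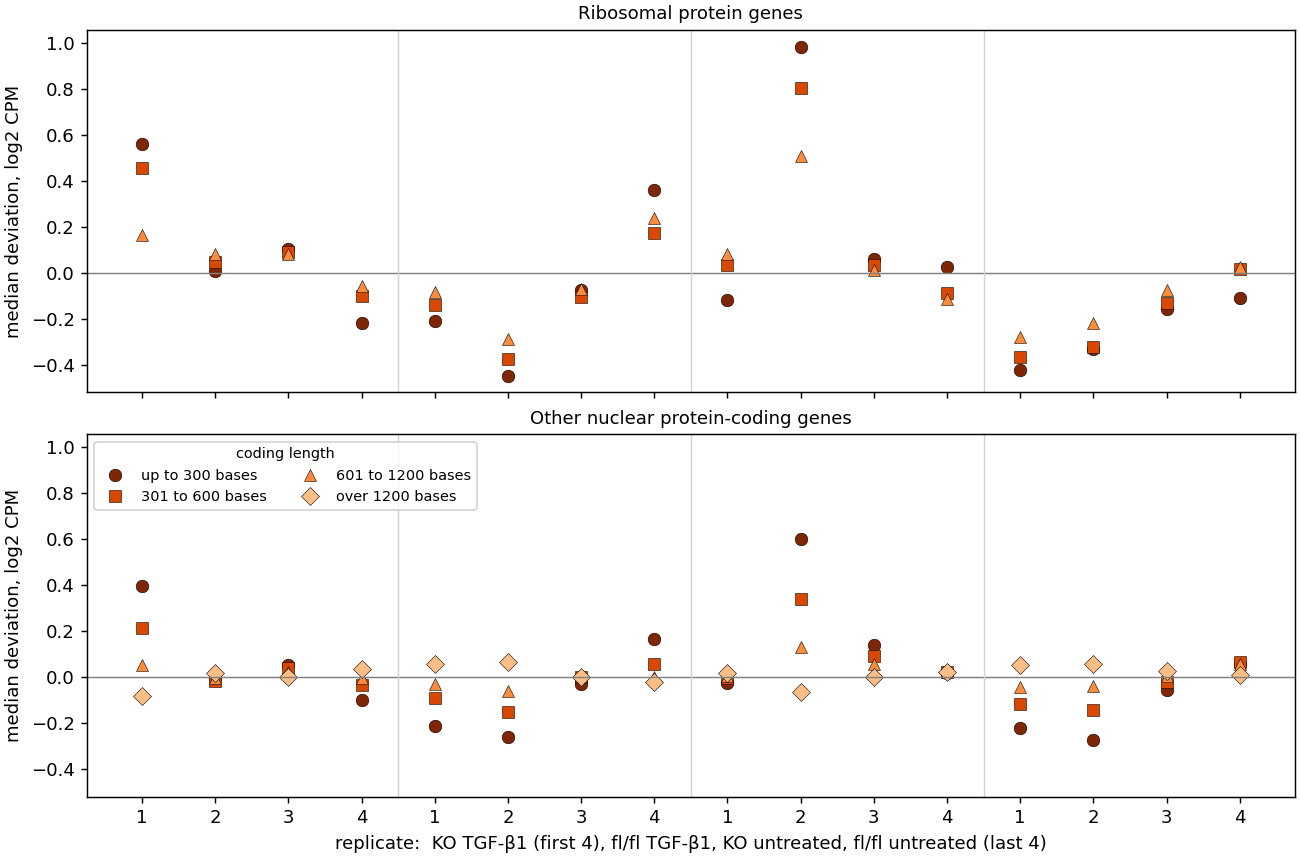
Median deviation of log2 CPM from each gene's mean over the 16 libraries, by library and coding length class, for ribosomal protein genes (top, 11, 49 and 21 genes) and for other nuclear protein-coding genes (bottom, 237, 1261, 3400 and 6782 genes). In KO untreated replicate 2 the deviations fall with length in both panels, from 0.98 to 0.51 at the top and from 0.60 to -0.07 at the bottom.

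The paralog pairs were compared per length, in FPKM averaged over the 16 libraries. Rpl22 was at 61.7 FPKM and its paralog Rpl22l1, which Rpl22 is known to repress in mice, at 40.2 FPKM. Rps27 was at 386 FPKM and Rps27l, a p53-inducible paralog, at 77.0 FPKM. Rpl36a was at 159 and Rpl36al at 52.9 FPKM, Rpl7 at 334 and Rpl7l1 at 32.8 FPKM, Rps4x at 636 and Rps4l at 2.41 FPKM, and Rps27rt at 3.02 FPKM. Rpl3 and Rpl10 were at 403 and 783 FPKM, while their paralogs Rpl3l and Rpl10l had at most 3 and 0 counts. In each pair the standard gene exceeded its paralog. Reads of Rps27 and Rps27l can be told apart along most of their coding sequence: of 252 bases 60 differ (76.2% identical), and the longest identical stretch is 11 bases. Both are shown from GENCODE M21 on GRCm38 without the stop codon, spliced, with the bases that differ in capitals (Rps27 from chr3:90212728-90213615, minus strand; Rps27l from chr9:66946175-66949354, plus strand).
Rps27: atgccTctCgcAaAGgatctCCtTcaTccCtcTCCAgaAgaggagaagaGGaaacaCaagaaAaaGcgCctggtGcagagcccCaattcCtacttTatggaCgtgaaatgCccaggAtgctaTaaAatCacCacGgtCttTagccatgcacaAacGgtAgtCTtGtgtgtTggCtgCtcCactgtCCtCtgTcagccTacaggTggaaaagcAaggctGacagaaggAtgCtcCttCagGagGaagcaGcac
Rps27l: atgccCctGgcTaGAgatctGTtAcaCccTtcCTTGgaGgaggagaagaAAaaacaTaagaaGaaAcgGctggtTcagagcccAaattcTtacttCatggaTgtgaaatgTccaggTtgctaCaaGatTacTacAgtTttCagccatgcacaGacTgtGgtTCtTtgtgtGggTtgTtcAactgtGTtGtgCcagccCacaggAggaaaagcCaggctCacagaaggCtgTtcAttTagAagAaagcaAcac
Rps27 was at 177, 88.5, 85.6 and 82.3 CPM in KO TGF-β1, 76.2, 64.2, 89.3 and 113 CPM in fl/fl TGF-β1, 92.7, 185, 97.1 and 84.9 CPM in KO untreated and 88.5, 74.2, 75.7 and 86.5 CPM in fl/fl untreated libraries. Rps27l was at 54.7, 38.4, 44.3 and 35.5 CPM in KO TGF-β1, 33.1, 34.4, 41.6 and 39.5 CPM in fl/fl TGF-β1, 41.0, 81.9, 44.7 and 49.7 CPM in KO untreated and 37.3, 37.4, 42.1 and 48.9 CPM in fl/fl untreated libraries. Both were high in KO untreated replicate 2 and KO TGF-β1 replicate 1.

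Rpl22l1, Rps4x and 9 other members departed from the family in fl/fl TGF-β1 replicate 4, in which most members were above their mean. Relative to the median member of the library, on the log2 scale, these 11 members lay more than 0.2 below the other 3 libraries of their group, and 7 more lay below by less. The share of all tested genes that did so was not counted. Among the 16 libraries this one held the lowest level of 25.9% of all tested genes and the highest of 17.2%. For the members these shares were 5.81% and 9.30%. Rpl22l1 was at -5.78 there, against -4.17 to -3.93 in the other 3 libraries, and Rps4x at 0.40, against 1.01 to 1.11. Rpl39 was at -2.62, against -1.88 to -1.73, Rps15a at -1.16, against -0.50 to -0.41, and Rps24 at -0.27, against 0.32 to 0.47. The others were Rpl23, Rpl30, Rpl5, Rps27a, Rps3a1 and Rpl7. Rpl22l1 was at 29.7, 22.5, 20.8 and 22.1 CPM in KO TGF-β1 libraries, against 18.1, 13.01, 17.2 and 5.89 CPM in fl/fl TGF-β1 libraries. It was at 26.2, 36.5, 18.1 and 19.3 CPM in KO untreated libraries, against 11.6, 11.6, 18.3 and 21.0 CPM in fl/fl untreated libraries. Its log2 fold change of KO over fl/fl was 0.81 ± 0.30 under TGF-β1 and 0.68 ± 0.30 in untreated cells, with adjusted p of 0.877 and 0.447 by edgeR. Rpl22 itself had log2 fold changes of 0.08 ± 0.14 and 0.33 ± 0.14 in those comparisons. Rps4x, the X-linked gene of a small-subunit protein, was at 733, 629.9, 651 and 605 CPM in KO TGF-β1 libraries, against 560.2, 509, 577 and 434 CPM in fl/fl TGF-β1 libraries, with the lowest of the 16 values in fl/fl TGF-β1 replicate 4. The log2 fold change was 0.33 ± 0.13 with an adjusted p of 0.877 by edgeR. Rps4l was at 2.47, 1.52, 0.88 and 1.52 CPM in KO TGF-β1 libraries, against 1.76, 2.66, 2.98 and 3.54 CPM in fl/fl TGF-β1 libraries, a log2 fold change of -0.78 ± 0.38 with an adjusted p of 0.877 by edgeR. The genes Rpl9-ps6 and Rps27rt were highest in that same library, at 6.93 and 3.75 CPM, against at most 3.85 and 2.83 CPM elsewhere.

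Genes that serve the ribosome without belonging to the family were described by 10 lists, with counts of members past an adjusted p of 0.05 by edgeR. The TGF-β1 counts in fl/fl cells stand against 15.5% of all tested genes, and those in KO cells against 5.17%, and each list except that of the p53 arm lay below the share of all genes. In fl/fl cells TGF-β1 raised 2 of 14 genes of the RNA polymerase I machinery, Ubtf (log2 fold change 0.51 ± 0.10, adjusted p of 0.00266), which organises ribosomal DNA chromatin, and Cd3eap (0.71 ± 0.21, adjusted p of 0.0293), a polymerase I subunit. It raised 2 of 44 ribosome biogenesis factors, Heatr1 (0.78 ± 0.21, adjusted p of 0.0156) and Mrto4 (0.52 ± 0.17, adjusted p of 0.0499). It raised 2 of 17 genes around mTORC1, Rptor (0.96 ± 0.17, adjusted p of 0.00167), the scaffold of the complex, and Rps6ka1 (0.47 ± 0.12, adjusted p of 0.0153), a kinase of ribosomal protein S6. None of these lists had a member that fell. Of 10 genes of the p53 arm of the ribosomal stress response, Mdm2 rose (0.41 ± 0.11, adjusted p of 0.0191), and 4 fell, among them Pmaip1 (-2.22 ± 0.36, adjusted p of 0.00104), Sesn1 (-0.86 ± 0.21, adjusted p of 0.0082) and Cdkn1a (-0.56 ± 0.17, adjusted p of 0.0348). Of 9 ribosome rescue and collision sensors Zfp598 rose (0.35 ± 0.11, adjusted p of 0.0362). None of 28 initiation factors, 19 elongation and other TOP genes, 12 chaperones and importers or 6 snoRNA host genes passed. Without the library labelled KO untreated replicate 1, when 17.7% of all tested genes passed, 1 initiation factor fell, 1 chaperone or importer rose and 1 fell, 2 rescue genes rose and 5 genes of the p53 list fell; the other counts stayed as given. With the fl/fl libraries paired by number, when 16.8% of all tested genes passed, 1 chaperone or importer rose, Zfp598 no longer passed and 5 genes of the p53 list fell.

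In KO cells TGF-β1 lowered Pmaip1 (-2.12 ± 0.36, adjusted p of 0.00808), and no other gene of those lists passed with all 16 libraries. Without the library labelled KO untreated replicate 1, 2 genes of the polymerase I list, 3 of the mTORC1 list, 1 of the biogenesis list, 1 chaperone or importer and 1 rescue gene rose in KO cells, and 1 of the p53 list rose and 3 fell, where 14.9% of all tested genes passed. Whether these responses differed between the genotypes is covered by the interaction, in which no gene passed. The 77 mitochondrial ribosomal protein genes, 76 of them tested, serve another ribosome and were set beside the family. TGF-β1 raised Mrpl38 in fl/fl cells (0.42 ± 0.13, adjusted p of 0.0332) and lowered Mrps6 in KO cells (-0.91 ± 0.24, adjusted p of 0.039). In KO over fl/fl untreated cells their median log2 fold change was 0.26, against 0.41 for the cytosolic family, and they lay 0.48 above their mean in KO untreated replicate 2 and 0.26 above it in KO TGF-β1 replicate 1. No gene of the 10 lists passed in a comparison between the genotypes.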

How the data were processed

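RNA of 16 libraries was sequenced by the submitters, whose processing notes name TopHat2 2.0.9, Cufflinks 2.1.1, HTSeq 0.6.1 and mm10 without saying which step each served. Strand and multi-mapping options are not given in the sources used here. The deposited table holds raw counts per gene as the authors made them. It also holds FPKM from the authors, equal to count over length and total for all 266414 positive values within 0.1%. Counts were tested with edgeR 4.0.16 in R 4.3.3: TMM scaling, filterByExpr over 4 groups, robust quasi-likelihood fits of all 16 libraries, 5 contrasts, and Benjamini-Hochberg adjustment over all 13080 tested genes at 0.05. The SE of a log2 fold change is its size over the root of F. Log2 CPM used a prior count of 2. DESeq2 1.42.0 and limma 3.58.1 on log2(FPKM + 1), on which scale low genes change less, were alternatives, with other scalings, filters, a replicate block and libraries left out. The edgeR step was tested on simulated data. Named genes were the 5 most abundant, the 3 of lowest p per comparison, paralog pairs and the 3 highest and lowest SDs. The members without overlap between groups, the least abundant members, Rpl38 and Rpl41 were added after their values were seen. The family and the gene lists were chosen with earlier results of these data known. The labels do not pair same-numbered libraries. Their deviations from the group means correlated above 0.1 in all 4 fl/fl pairs (0.12 to 0.18), taken as paired, and in 2 of 4 KO pairs, taken as unpaired. Differently numbered libraries correlated from -0.24 to 0.20, the highest being fl/fl untreated replicate 1 with fl/fl TGF-β1 replicate 2. These correlations therefore do not establish a pairing by number. A block within each genotype was added after seeing the data.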

Additional observations from a re-analysis of the deposited data

Results flagged for a closer look

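In 24 of 136 groups of 4 libraries, 1 library lay so far from the other 3 that its gap to the nearest exceeded Dixon's critical value. Chance gives about 1 in 20 for independent groups chosen without regard to their values. These groups share libraries, and some genes were named for their values, so 24 of 136 cannot be read against that rate. The values are in CPM, with the range of the other 3 libraries of the group after each. Most of them lay in KO untreated replicate 2, where the share of counts in ribosomal protein genes was 4.71% and many members were far above their group.

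Among large-subunit and stalk genes in KO untreated replicate 2, Rpl22 was at 201 CPM (122 to 132), Rpl32 at 637 (388 to 428), Rpl35 at 50.03 (21.96 to 24.8), Rpl36a at 224 (123 to 127), Rpl36al at 135 (66.8 to 69.6), Rpl37a at 524 (195 to 217), Rpl38 at 253 (77.0 to 87.4), Rpl39 at 162 (88.3 to 94.4), Rpl41 at 961 (323 to 391), Rplp0 at 1704 (1244 to 1319) and Rplp1 at 1092 (437 to 513). Among small-subunit genes there, Rps12 was at 818 CPM (395 to 437), Rps27 at 185 (84.9 to 97.1), Rps3a1 at 728 (424 to 462) and Rps4x at 912 (616 to 649.7). The scarce Rpl9-ps6 was at 3.85 CPM (0.334 to 0.841) and Rps27rt at 2.83 CPM (0.945 to 1.24).

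In KO TGF-β1 replicate 1, Rpl36al was at 111 CPM (57.1 to 66.1), Rpl37a at 327 (194 to 215), Rpl39 at 163 (90.5 to 97.9) and Rps27 at 177 (82.3 to 88.5). In fl/fl TGF-β1 replicate 4, Rpl9-ps6 was at 6.93 CPM (0.337 to 0.888) and Rps27rt at 3.75 CPM (0.303 to 0.625). The cause of these values was not tested.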

How the results depend on the processing

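Among the alternative values, 500 for single genes and 269 for counts, medians and shares kept their direction and side of the threshold, 9 moved, 2 passed the threshold only in the alternative and 5 reversed; the cause was not tested. The number of members called for KO over fl/fl untreated cells was 1 with DESeq2 and ran from 0 to 1 when each library was left out, with 1 without KO untreated replicate 1; in the other comparisons it stayed at 0. Leaving out each library, the median log2 fold change ran from 0.01 to 0.21 for TGF-β1 in fl/fl cells, -0.20 to 0.14 for TGF-β1 in KO cells, 0.16 to 0.49 for KO over fl/fl untreated, 0.08 to 0.30 for KO over fl/fl TGF-β1 and -0.28 to 0.04 for the interaction. Without KO untreated replicates 1 and 2, a choice made after seeing the data, the medians were 0.18 for TGF-β1 in KO cells, 0.12 for KO over fl/fl untreated and 0.069 for the interaction. As a share of summed FPKM the family took 7.95% in KO TGF-β1, 6.83% in fl/fl TGF-β1, 8.36% in KO untreated and 6.66% in fl/fl untreated libraries. For TGF-β1 in KO cells, the log2 fold change of Rpl41 ran from -0.52 to 0.13 and that of Rpl35 from -0.63 to -0.12 over the fits that omit 1 library. Omitting KO untreated replicates 1 and 2 gave 0.088 for Rpl41 and 0.00054 for Rpl22. Omitting KO untreated replicate 2 and KO TGF-β1 replicate 1, also chosen after seeing the data, gave 0.039 for Rpl35 and 0.055 for Rpl41. With the replicate number as a block no member was called, the medians were 0.09, -0.09, 0.39, 0.18 and -0.18 in the order above, and members higher at an unadjusted p of 0.05 numbered 26 for KO over fl/fl untreated (4.82% of all tested genes), against 41 without the block, and 6 for KO over fl/fl TGF-β1 (2.52%), against 13. With the block set within each genotype, no member was called, where 16.8% of all tested genes passed for TGF-β1 in fl/fl cells and 7.6% in KO cells. The medians were 0.09 for TGF-β1 in fl/fl cells, -0.06 in KO cells and -0.15 for the interaction, in which Rpl23a had an unadjusted p of 0.0498 (adjusted p of 0.963 by edgeR). Same-numbered libraries correlated from -0.18 to 0.24, above 0.1 in 6 of 24 pairs, all within a genotype. Differently numbered libraries correlated from -0.24 to 0.20. Fitting only the 2 groups compared also gave 26, and this fit was not run for the interaction. Counts of Rps27rt, Rps4l and the -ps genes are low, so small changes there were not detectable at this depth.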
